A study of Homo sapiens with 30 samples.

Results

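The replication-dependent histone genes are the clustered genes that supply the core histones H2A, H2B, H3 and H4 and the linker histone H1 in S phase. They were taken here as every gene symbol of the HIST1, HIST2, HIST3 and HIST4 clusters in the count tables, leaving out symbols that end as pseudogenes, 14 of which were set aside. That rule found 75 members among the 57773 genes that each of the 4 tables lists. There are 6 members for H1, 17 for H2A, 23 for H2B, 14 for H3 and 15 for H4. HIST1, on chromosome 6, holds 55 of them, HIST2 holds 15, HIST3 holds 4 and HIST4 holds 1. GENCODE release 29 annotates 5 of the 75 as pseudogenes although their symbols do not say so, namely HIST2H2BA, HIST2H2BB, HIST2H2BC, HIST2H2BD and HIST3H2BA.

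As background, the mRNAs of these genes differ from all others in animal cells because they are not normally polyadenylated. They end just after a short stem-loop, which is bound by SLBP, the stem-loop binding protein needed for their processing, export and translation. Their transcription is switched on at entry into S phase by NPAT, a co-activator phosphorylated by cyclin E with CDK2, and the mRNAs are destroyed when DNA synthesis stops. RB1, the retinoblastoma protein, holds back the E2F factors that drive entry into S phase. Some members also give longer, polyadenylated transcripts that read past the stem-loop, mostly in cells that are not dividing. A library kit that selects poly(A) tails therefore captures the usual histone mRNA poorly, whereas a total-RNA kit keeps it.

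The study measured RNA by sequencing in 3 human prostate cancer cell lines after loss of RB1, after inhibition of the histone demethylase LSD1 with GSK2879552, or after the androgen dihydrotestosterone (DHT). C4-2-tet-shRB is a castration-resistant derivative of LNCaP with a short hairpin against RB1 switched on by doxycycline, LNCaP is the androgen-sensitive parent, and VCaP is a separate line that carries the TMPRSS2-ERG fusion. The total-RNA kit (TruSeq Stranded Total RNA) was used for C4-2-tet-shRB with DHT and for LNCaP, and the poly(A) kit (TruSeq Stranded mRNA) for C4-2-tet-shRB with GSK2879552 and for VCaP. The C4-2 DHT experiment had 1 library for each of 6 groups in RPMI with 8% charcoal-stripped and 2% regular serum: doxycycline at 0.05 µg/ml for 3 days followed by 10 nM DHT for 24 hours, the same doxycycline alone, doxycycline for 30 days followed by DHT, doxycycline for 30 days alone, DHT alone and vehicle. The C4-2 GSK2879552 experiment had 2 libraries for each of 4 groups in RPMI with 5% charcoal-stripped serum: doxycycline at 0.05 µg/ml for 3 days with 10 µM GSK2879552 for 1 day, GSK2879552 alone, doxycycline alone and DMSO. In VCaP, 3 libraries followed 2 days of 20 nM siRNA against RB1 and 3 followed a non-targeting siRNA, in a medium labelled DMEM with 10% serum although the library names carry the abbreviation for charcoal-stripped serum. In LNCaP, 1 library followed 2 days of 1 µM GSK2879552 and 1 followed vehicle, in RPMI with 5% charcoal-stripped serum. All C4-2 groups carry the hairpin construct, so no group had doxycycline without it. The labels do not say whether libraries of a group came from separate cultures. In the poly(A) experiments the spread that p-values rest on is that among libraries of a group and may be technical. The C4-2 DHT experiment has 1 library per group. Its p-values rest instead on how far the libraries depart from a model that adds the doxycycline and DHT effects. In all 3 tested experiments each gene's spread was also drawn toward that of the other genes tested.

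The tables held 13085157 to 22326960 counted reads per library in C4-2 and LNCaP, and 4311455 to 7107036 in VCaP. RB1 read 5.32 to 7.38 CPM (a gene's read count scaled to a common library size) with the RB1 siRNA in VCaP, against 56.2 to 63.6 CPM with the non-targeting siRNA. In C4-2 it read 4.64 to 10.0 CPM in the 8 libraries with doxycycline, against 22.1 to 51.0 CPM in the 6 without. The luminal prostate markers KLK3, TMPRSS2, FOLH1, HOXB13, KRT8 and KRT18 each read 12.9 CPM or more in every library. ERG read 273 to 326 CPM in VCaP and at most 0.218 CPM elsewhere. Of the markers of other cell types, KRT5, TP63, DCN, COL1A2 and PTPRC read at most 0.964 CPM in any library. COL1A1 reached 50.7 CPM in C4-2, KRT14 7.70 CPM in VCaP, and the neuroendocrine genes CHGA and SYP read 135 to 149 and 70.6 to 84.9 CPM in VCaP, with SYP at most 3.79 CPM and CHGA at most 0.413 CPM elsewhere.

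The stem-loop that ends the usual histone mRNA was searched as a stem of 6 bases around a loop of 4 bases in the annotated transcripts of the members. It lay in an annotated exon of 31 of the 75 members: 6 of 17 for H2A, 12 of 23 for H2B, 5 of 14 for H3, 8 of 15 for H4 and 0 of 6 for H1. A missing match says only that the annotated transcript does not hold these letters. Of the 31, 21 have an annotated transcript that runs on for 100 bases or more past the stem-loop. The regions below belong to members whose values are given later and show the 4 forms found, in 5′ to 3′ direction on the gene's own strand, with the stem and loop in capitals.
HIST2H2BE: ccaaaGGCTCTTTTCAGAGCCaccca
HIST1H2AC: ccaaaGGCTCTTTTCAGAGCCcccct
HIST1H3H: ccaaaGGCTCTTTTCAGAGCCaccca
HIST1H2BD: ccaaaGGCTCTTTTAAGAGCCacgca
HIST1H4H: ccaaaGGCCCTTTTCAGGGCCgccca
HIST1H4E: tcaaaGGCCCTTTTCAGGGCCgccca
HIST4H4: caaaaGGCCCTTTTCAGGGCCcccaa
HIST1H4I: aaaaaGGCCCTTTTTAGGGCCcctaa
The stem GGCTCT with a TTTC loop was found in 18 members and with a TTTA loop in 5, and the stem GGCCCT with a TTTC loop in 5 and with a TTTT loop in 3. The annotated transcript ran on for 1729 bases past the stem-loop in HIST2H2BE, 1655 in HIST1H4H, 1510 in HIST4H4, 1128 in HIST1H2AC and 1022 in HIST1H4E. It ran on for 769 bases in HIST1H3H, 212 in HIST1H4I and 39 in HIST1H2BD.

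Promoter sequence from RefSeq was matched to 60 of the 75 members by symbol, as windows of 250 bases before and 50 after the start of each gene in GRCh38.p14. A CCAAT box (CCAAT on either strand) was in 50 of the 60 windows, which is 83.3%, against 35.7% of all 27305 promoters in the table. TATAAA was in 40 of 60 (66.7%, against 11.95% of all promoters), and the octamer core TTTGCAT, the letters bound by POU2F1 (OCT1) at H2B genes, in 21 of 60 (35.0%, against 4.51%). The octamer core was found in 9 of 13 H2B and 11 of 16 H2A windows, in 1 of 12 for H3 and in none of the 13 for H4 or the 6 for H1. The E2F-like letters TTCCCGC were in 10 of 13 H4 windows and in no window of another class (16.7% of members, against 6.56% of all promoters), and TTTGGCG was in 1 of 60 (1.67%, against 1.92%). CCAAT was in every window for H1, H2A, H2B and H3 but in 3 of 13 for H4. A match is a description of letters and not a measured binding site.

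The 250 bases upstream of 4 members are shown because HIST1H2BJ, HIST1H2BK and HIST2H2BE are the H2B genes whose values stand apart from most members in the comparisons below, and HIST1H4E carries the TTCCCGC letters found in 10 of 13 H4 windows. They are chr6:27132796-27133045 on the minus strand for HIST1H2BJ, chr6:27146859-27147108 on the minus strand for HIST1H2BK, chr1:149886683-149886932 on the minus strand for HIST2H2BE and chr6:26204360-26204609 on the plus strand for HIST1H4E, all in GRCh38.p14, with matches to the motifs above in capitals on either strand.
HIST1H2BJ: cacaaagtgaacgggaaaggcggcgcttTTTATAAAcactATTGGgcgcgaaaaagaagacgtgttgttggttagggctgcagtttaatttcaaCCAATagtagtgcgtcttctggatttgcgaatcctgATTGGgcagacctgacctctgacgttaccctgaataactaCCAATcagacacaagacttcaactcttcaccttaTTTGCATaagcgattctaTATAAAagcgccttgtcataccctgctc
HIST1H2BK: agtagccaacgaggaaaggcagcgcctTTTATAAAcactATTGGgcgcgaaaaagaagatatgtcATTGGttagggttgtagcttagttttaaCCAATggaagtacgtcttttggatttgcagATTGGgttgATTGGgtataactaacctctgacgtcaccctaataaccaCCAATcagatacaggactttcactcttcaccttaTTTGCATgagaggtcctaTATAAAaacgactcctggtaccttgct
HIST2H2BE: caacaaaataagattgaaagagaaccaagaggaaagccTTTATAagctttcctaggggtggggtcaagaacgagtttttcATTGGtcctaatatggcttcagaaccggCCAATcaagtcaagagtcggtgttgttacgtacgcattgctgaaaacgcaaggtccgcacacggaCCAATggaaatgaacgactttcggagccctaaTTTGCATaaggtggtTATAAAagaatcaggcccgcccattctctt
HIST1H4E: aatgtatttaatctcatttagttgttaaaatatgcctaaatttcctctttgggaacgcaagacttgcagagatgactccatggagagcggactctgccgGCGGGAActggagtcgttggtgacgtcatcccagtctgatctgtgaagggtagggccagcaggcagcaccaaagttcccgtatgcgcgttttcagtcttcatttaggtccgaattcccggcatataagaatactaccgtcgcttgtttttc
The 3 H2B windows share the order octamer core then TATAAA close to the start. The octamer core begins 46 bases before the start in HIST1H2BJ and 45 in HIST1H2BK and HIST2H2BE, and the nearest TATAAA begins 28, 27 and 30 bases before it in the same order. HIST1H2BK holds 6 CCAAT boxes, HIST1H2BJ 4 and HIST2H2BE 3. The HIST1H4E window holds none of these and carries TTCCCGC, read on the opposite strand as GCGGGAA, 151 bases before the start. In 8 places an H2A and an H2B gene point away from each other and share 193 to 247 bases of this upstream sequence. HIST1H2BJ shares 247 bases with HIST1H2AG, HIST2H2BE shares 235 with HIST2H2AC, HIST1H2BO shares 239 with HIST1H2AM and HIST3H2BB shares 229 with HIST3H2A.

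The share of reads that fell on histone genes was far lower in the poly(A) libraries. In C4-2 the 2 DMSO libraries made with the poly(A) kit placed 0.0783% and 0.0835% of their reads on the members, against 0.759% in the total-RNA vehicle library (95% exact Clopper-Pearson interval 0.754 to 0.763, which covers counting error only, as do all such intervals below). In VCaP with the poly(A) kit the non-targeting libraries held 0.0222%, 0.0246% and 0.0241%, against 0.205% (0.203 to 0.208) in the LNCaP vehicle library with the total-RNA kit. Lines and media differ too between these tables, so these levels are set side by side without a test.

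Both kits were used on C4-2 without doxycycline, inhibitor or DHT, although in different media. Of 41 members with 10 CPM or more in the total-RNA vehicle library, 30 read under 10% of that level and 14 under 1% in the poly(A) DMSO libraries, and 3 read at 50% or more. HIST1H4C, an H4 gene, read 0.413 and 0.254 CPM with the poly(A) kit against 398 CPM with the total-RNA kit. HIST1H3B, an H3 gene, read 1.10 and 1.53 CPM against 578 CPM, and the linker histone gene HIST1H1E read 2.82 and 2.67 CPM against 739.5 CPM. At the other end stood HIST2H2BE, an H2B gene whose annotated transcript runs past its stem-loop, with 146 and 159.7 CPM against 213 CPM. HIST3H2A, an H2A gene, read 8.34 and 8.39 CPM against 11.6 CPM, and HIST1H3E read 10.7 and 11.1 CPM against 13.97 CPM. HIST1H2BK stood just under these with 92.8 and 115 CPM against 214 CPM, and HIST1H2BJ far lower with 8.13 and 9.91 CPM against 127 CPM.

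**Figure D1:**
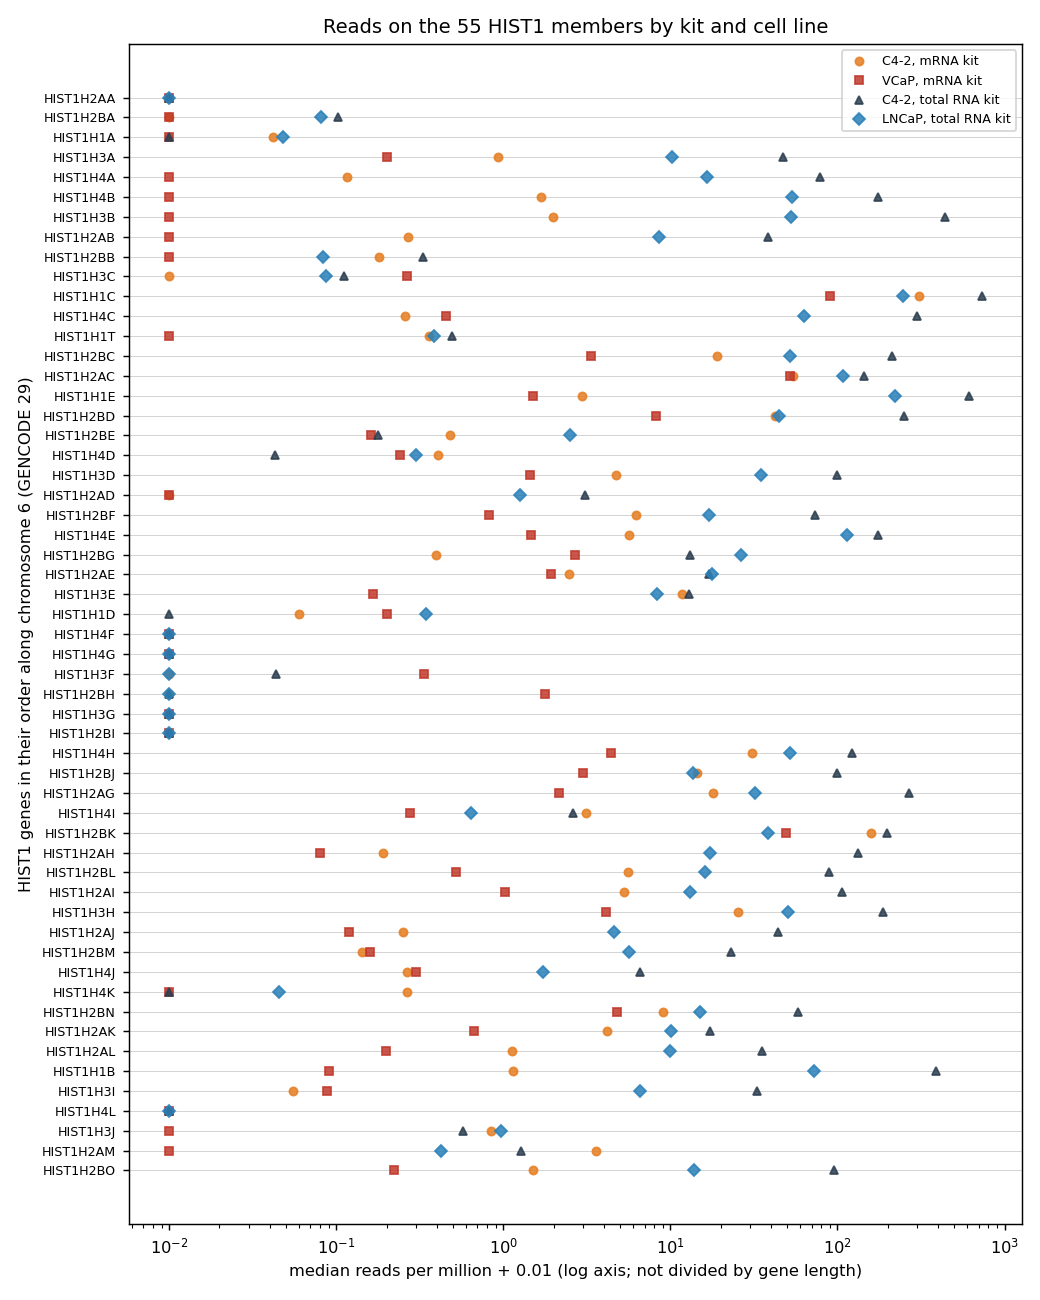
Median CPM over the libraries of each of the 4 tables for the 55 HIST1 members, in their order along chromosome 6 (log axis, 0.01 added so that members with no read can be drawn). Most members lie further to the right in the total-RNA tables than in the poly(A) tables, HIST1H1C, HIST1H2BK and HIST1H2AC lie high in all 4, and a stretch from HIST1H1D to HIST1H2BI has few or no reads, apart from HIST1H2BH in VCaP with a median of 1.78 CPM.

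With the poly(A) kit a few members carried most of the reads, counted without dividing by gene length. In C4-2 with the poly(A) kit, 6 members took 80.5% of the 141808 member reads: HIST1H1C 31.7%, HIST2H2BE 19.2%, HIST1H2BK 16.6%, HIST1H2AC 5.47%, HIST1H2BD 4.40% and HIST1H4H 3.26%. In VCaP 6 members took 83.3% of 8621 member reads, led by HIST1H1C at 36.3%, HIST1H2AC at 19.8% and HIST1H2BK at 18.4%, with HIST2H2BE at 3.83%, HIST1H2BD at 3.21% and HIST3H2A at 1.77%. With the total-RNA kit the reads were spread more evenly, and the top 6 took 45.6% of 556409 reads in C4-2 and 49.3% of 48648 in LNCaP. These were HIST1H1C, HIST1H1E, HIST1H3B, HIST1H1B, HIST1H4C and HIST1H2AG in C4-2, and HIST1H1C, HIST1H1E, HIST1H4E, HIST1H2AC, HIST2H2BE and HIST2H2AC in LNCaP. HIST1H1C, a linker histone gene, led all 4 tables.

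The balance between the histone classes differed too. Genes for H4 held 4.54% to 5.98% of member reads in the C4-2 poly(A) libraries and 3.28% to 4.08% in VCaP, against 14.5% to 17.3% in the C4-2 total-RNA libraries and 18.7% to 20.5% in LNCaP. Genes for H2B held 42.2% to 50.5% and 29.03% to 37.5% in the poly(A) tables, against 21.9% to 28.4% and 19.3% to 22.2% in the total-RNA tables. At 1 CPM or more in every library stood 29 members in the C4-2 poly(A) table and 16 in VCaP, against 44 in each total-RNA table. No read fell on 11 members in the C4-2 poly(A) table and 19 in VCaP, against 9 in the C4-2 total-RNA table and 16 in LNCaP. Of the 75 members, 7 have no unique 50-base word, among them HIST2H3A and HIST2H3C, which had no read in any library. Such a member need not be silent, since its reads may not have been assigned to it.

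The annotated extension past the stem-loop went with a higher median level in the poly(A) tables. The 21 members with 100 or more annotated bases past the stem-loop had a median level of 5.64 CPM in the C4-2 poly(A) table and 1.45 CPM in VCaP, against 0.307 and 0.0704 CPM for the other 54. In the total-RNA tables their medians were 13.04 CPM in C4-2 and 14.97 CPM in LNCaP, against 15.01 and 5.11 CPM for the others. The 21 held 37.5% of member reads in the C4-2 poly(A) table and 35.6% in VCaP. In the total-RNA tables they held 23.1% in C4-2 and 35.0% in LNCaP. HIST1H1C and HIST1H2BK, among the most read members in both poly(A) tables, have no stem-loop match in their annotated transcripts. These medians and shares are descriptions with no test, and levels here are not divided by gene length.

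**Figure D2:**
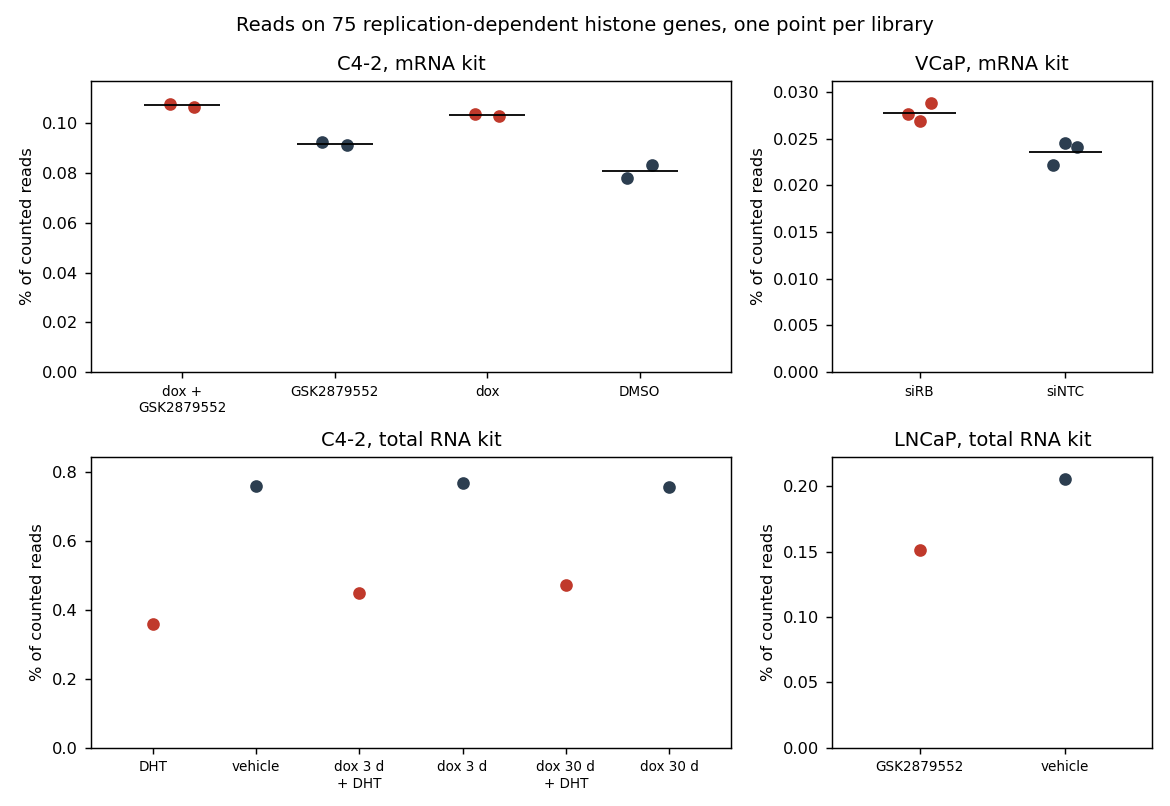
Percent of counted reads that fell on the 75 members in each library, in 4 panels by table with separate vertical axes starting at 0; each point is a library, a line is a group mean, and red marks libraries with RB1 lowered in the mRNA-kit panels and with DHT or GSK2879552 in the total-RNA panels. The 3 DHT libraries of C4-2 sit between 0.359% and 0.471%, all below the 3 libraries without DHT at 0.755% to 0.768%.

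DHT lowered most of the histone mRNAs tested in C4-2. With the total-RNA kit, 47 of the 75 members passed the filter on low counts, and DHT lowered 38 and raised 2 of them in edgeR's quasi-likelihood F test at a Benjamini-Hochberg adjusted p under 0.05. Over all 16504 genes tested, 23.9% fell and 25.1% rose. The median log2 change was -0.85 over the 47 members and -0.02 over all genes. The share of reads on the members was 0.359% (0.356 to 0.362) with DHT alone, against 0.759% with vehicle. After 3 days of doxycycline it was 0.448% (0.444 to 0.451) with DHT, against 0.768% (0.764 to 0.772) without, and after 30 days 0.471% (0.468 to 0.475) with DHT, against 0.755% (0.750 to 0.759) without. The test compared the 3 libraries with DHT against the 3 without, with doxycycline time as a covariate, and had 2 residual degrees of freedom. With no replicate library, the spread came from the variation of the DHT difference among doxycycline times, taken over all genes tested. The fit drew each gene's own spread toward that of other genes, with a median of 22.0 prior degrees of freedom beside the 2 residual ones. The p-values therefore rest more on other genes than on the gene itself. In RNA from whole cultures, fewer cells in S phase and less histone mRNA per cell cannot be told apart.

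The falls spanned every class, with 3 of 3 tested members of H1, 12 of 14 of H2A, 10 of 15 of H2B, 7 of 7 of H3 and 6 of 8 of H4. HIST1H4C read 127, 184 and 210.2 CPM with DHT at 0, 3 and 30 days of doxycycline, against 374, 412 and 462 CPM without DHT, a log2 change of -1.28 (SE 0.07, adjusted p = 2.59e-14). All 3 DHT libraries lay below all 3 others. HIST2H3D, an H3 gene of the HIST2 cluster, read 17.4, 23.9 and 23.4 CPM with DHT, against 64.5, 66.7 and 60.5 CPM without (log2 change -1.57, SE 0.08, adjusted p = 2.06e-14). Here too the groups did not overlap, and the lowest library was the one with DHT and no doxycycline.

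HIST2H2AB, an H2A gene, read 42.5, 55.9 and 62.3 CPM with DHT, against 110.0, 122 and 127 CPM without (log2 change -1.17, SE 0.06, adjusted p = 1.04e-13). HIST1H3I read 13.4, 22.3 and 22.0 CPM with DHT, against 42.8, 44.2 and 42.1 CPM without (log2 change -1.17, SE 0.10, adjusted p = 2.91e-10). Neither gene's groups overlapped. Among members of low level, HIST1H2AD read 1.38, 2.29 and 1.46 CPM with DHT against 4.01, 4.25 and 3.71 CPM without (log2 change -1.22, SE 0.21, adjusted p = 3.72e-05). HIST2H2BA, annotated as a pseudogene, read 0.581, 0.358 and 0.139 CPM against 1.25, 1.73 and 0.754 CPM (log2 change -1.79, SE 0.41, adjusted p = 0.00084). Only 26.4% of its 50-base words are unique to it, so reads may be shared with close copies such as HIST2H2BF.

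Members that took the most reads fell as well. HIST1H1E, a linker histone gene, read 313, 414 and 502 CPM with DHT against 696, 716 and 761 CPM without. HIST1H3B read 203, 297 and 318 CPM with DHT against 544, 566 and 576 CPM without. HIST1H1B, another linker histone gene, read 174, 254 and 287 CPM with DHT against 481, 495 and 471 CPM without, and HIST1H2AG read 161, 218 and 209 CPM against 329, 346 and 313 CPM. In these 4 genes all DHT libraries lay below all others, and their log2 changes were -0.85, -1.06, -1.04 and -0.76 in the order given. HIST1H1C fell less, with 644, 704 and 691 CPM with DHT against 861, 831 and 749 CPM without (log2 change -0.26, SE 0.06, adjusted p = 0.000625).

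HIST2H2BE went the other way. It read 331, 255 and 234 CPM with DHT at 0, 3 and 30 days of doxycycline, against 201, 179 and 174 CPM without, a log2 change of 0.55 (SE 0.06, adjusted p = 1.25e-08). All 3 DHT libraries lay above all 3 others, and the call held under each of the alternatives tried. HIST1H2AM was the second member called higher, at low level, with 1.23, 1.502 and 2.08 CPM with DHT against 1.32, 0.670 and 0.638 CPM without (log2 change 0.89, SE 0.34, adjusted p = 0.0309). It was called in 4 of 9 alternatives. Its groups overlapped, it overlaps HIST1H3J on the same strand, and only 13.7% of its 50-base words are unique, so reads may be shared with close copies.

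Of the 47 tested members, 7 were called in neither direction. HIST1H2BK read 182, 219 and 199 CPM with DHT against 202, 206 and 177 CPM without (log2 change 0.04, SE 0.06, adjusted p = 0.650). HIST1H2BJ read 79.6, 106 and 97.3 CPM with DHT against 119, 111 and 91.5 CPM without (log2 change -0.19, SE 0.08, adjusted p = 0.0588). In both genes the groups overlapped. HIST1H2AC read 144, 155 and 141 CPM with DHT against 165, 162 and 133 CPM without, and HIST4H4 read 86.7, 90.5 and 77.9 CPM against 100.2, 91.8 and 75.8 CPM, with log2 changes of -0.06 for each. The remaining 3 were HIST1H4I (0.44, adjusted p = 0.1098), HIST1H2BG (-0.18, adjusted p = 0.191) and HIST2H2BC (-0.20, adjusted p = 0.648). Members with 100 or more annotated bases past the stem-loop had a median log2 change of -0.49, with 9 of 14 lowered and 1 raised, against a median of -0.87 for the rest, with 29 of 33 lowered and 1 raised. This grouping was made after the values were seen, and the difference was not tested.

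**Figure D3:**
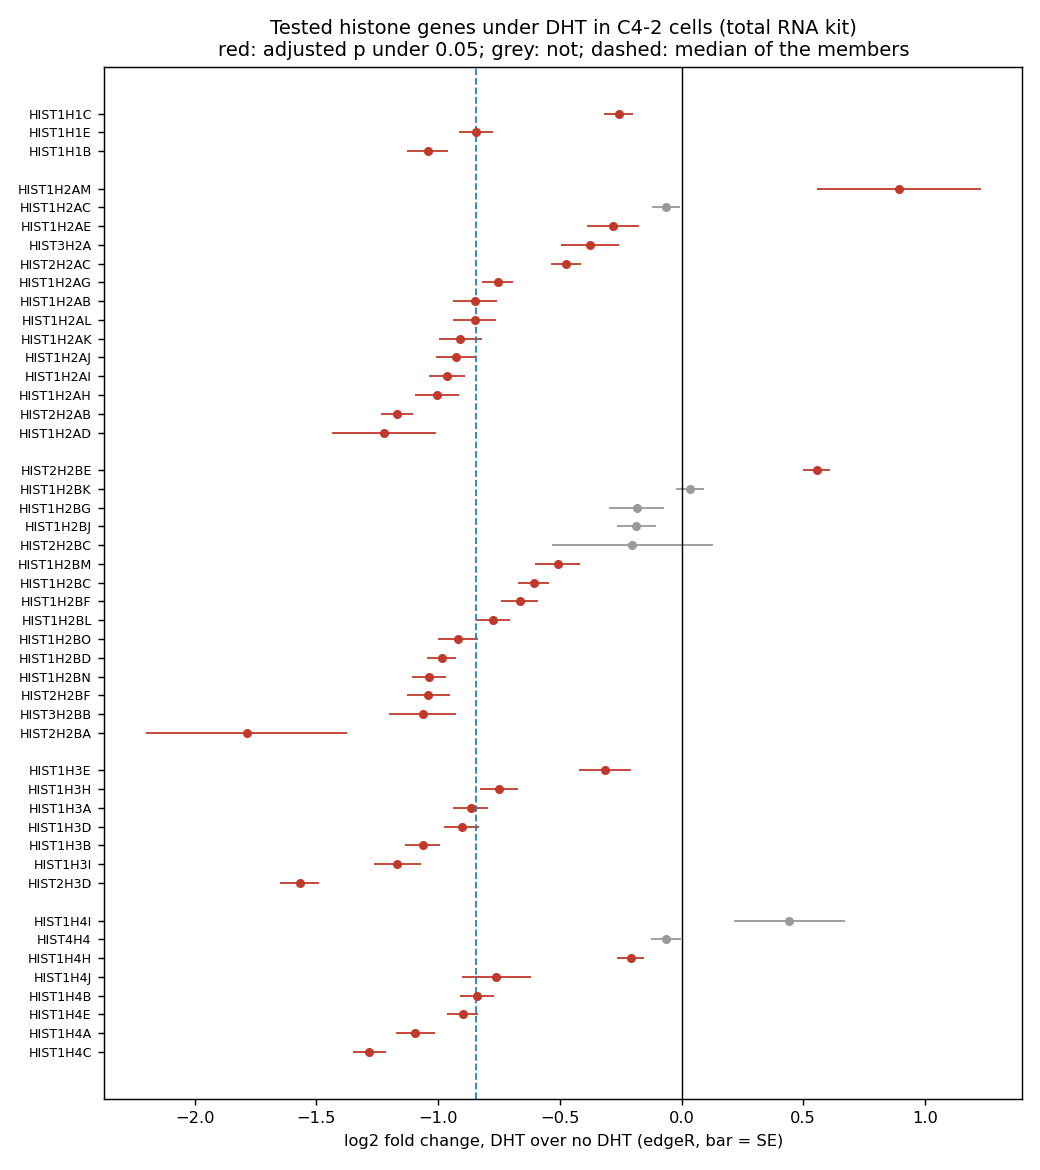
Log2 change with DHT against no DHT for the 47 tested members in the C4-2 total-RNA libraries, grouped by histone class, with bars of 1 SE; red marks an adjusted p under 0.05 and the dashed line the median of -0.85. Nearly all points lie below 0, and HIST2H2BE at 0.55 and HIST1H2AM at 0.89 are the called members above it.

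Other genes of S phase and of histone mRNA metabolism moved in the same libraries. All 17 S phase genes on the list fell with DHT (median log2 change -0.76), among them CDT1, which licenses replication origins (-1.09), TK1, thymidine kinase (-1.03), and MCM7 of the replicative helicase (-0.87). Of 25 genes for the transcription and processing of histone mRNA, 13 fell and 1 rose. Among them were CCNA2, cyclin A2 (-0.88), LSM11, a part of the U7 processing particle (-0.81), and CCNE2, a cyclin E (-0.62), while LSM10, its partner in that particle, rose (0.31). SLBP changed by -0.26 (adjusted p = 0.000385) and NPAT by -0.20 (adjusted p = 0.0099), both called.

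Of 15 histone chaperones, 10 fell and none rose, including NAP1L1 (-0.98), ASF1B (-0.78) and the FACT subunit SSRP1 (-0.65). Genes on the list of replacement histones, none of them a member, split. With DHT 4 of 12 rose, among them H2AFJ (0.49), the linker histone gene H1F0 (0.45) and H3F3B (0.15). Another 5 fell, among them the centromeric histone gene CENPA (-0.68), H2AFX (-0.54) and H2AFY2 (-0.37). RNAs without a poly(A) tail such as the 7SK RNA did not fall as a group, with 6 of 11 higher and 1 lower and a median of 0.14. Of 15 transcripts of the mitochondrial genome 8 were higher and none lower (median 0.22), and the part of these shifts in the histone values was not tested.

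Set side by side at each doxycycline time, the DHT difference was larger in cells with no doxycycline. These pairs hold 1 library each, so the differences have no replicate check and no test. Without doxycycline, 26 of 42 members with 100 or more reads in the pair were past 2-fold lower and 0 past 2-fold higher, where 3.73% of all genes were lower and 3.85% higher by that measure. The median log2 ratio of the members was -1.12. After 3 days of doxycycline 5 of 43 were past 2-fold lower and 0 higher, with 1.71% and 3.31% over all genes and a member median of -0.77. After 30 days 3 of 42 were past 2-fold lower and 0 higher, with 1.79% and 3.22% over all genes and a member median of -0.63. Scaled by total reads instead, the median of all genes moved to -0.19, -0.18 and -0.15 at 0, 3 and 30 days and the member medians to -1.32, -0.94 and -0.79, with 29, 16 and 10 members past 2-fold lower, which puts the members at -1.13, -0.77 and -0.64 relative to the median of all genes.

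HIST1H4C had log2 ratios of -1.56, -1.16 and -1.13 at 0, 3 and 30 days of doxycycline, and HIST2H3D of -1.88, -1.48 and -1.37. HIST2H2BE had ratios of 0.72 (95% exact interval 0.65 to 0.79), 0.51 (0.45 to 0.58) and 0.43 (0.35 to 0.50), so its ratio too was largest without doxycycline. HIST1H2BJ gave -0.58 (-0.69 to -0.48), -0.07 (-0.17 to 0.03) and 0.09 (-0.02 to 0.19). HIST1H2BK gave -0.15 (-0.22 to -0.07), 0.09 (0.02 to 0.16) and 0.16 (0.09 to 0.24), and with scaling by total reads its ratio at 3 days turned to -0.09 and that of HIST1H2BJ at 30 days to -0.07. The 17 S phase genes were all lower at each of the 3 times, with medians of -0.92, -0.63 and -0.71.

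**Figure D4:**
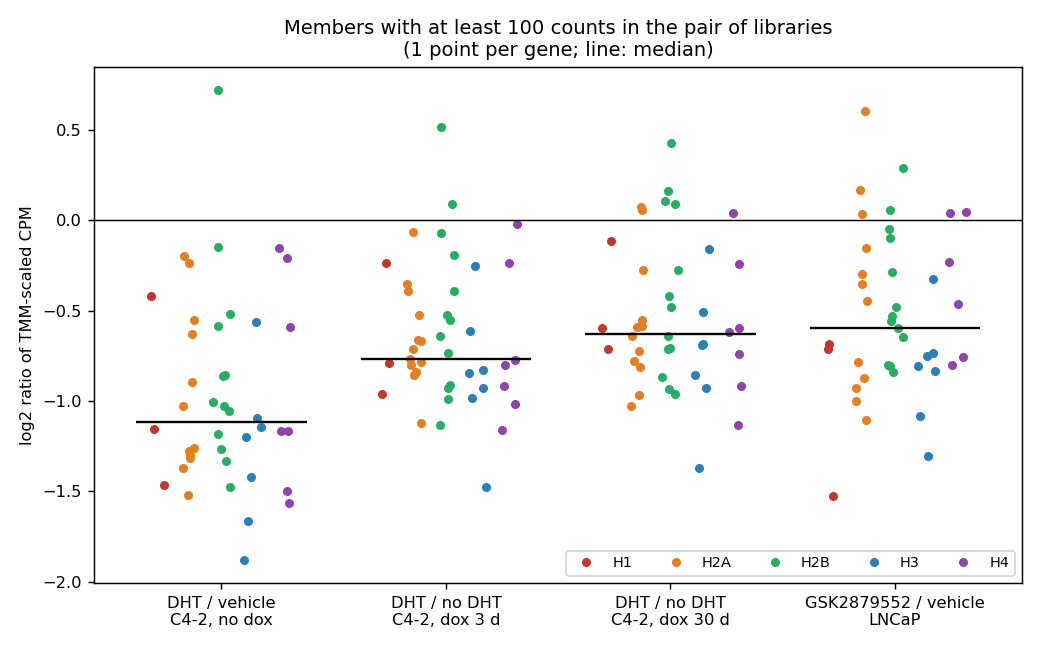
Log2 ratios between single libraries for the members with 100 or more reads in the pair, for DHT over no DHT in C4-2 at 0, 3 and 30 days of doxycycline and for GSK2879552 over vehicle in LNCaP; colours mark the histone class and the line the median. The medians are -1.12, -0.77, -0.63 and -0.60 from left to right.

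Doxycycline, which lowered RB1 in C4-2, moved the histone mRNAs far less than DHT in the total-RNA libraries. After 3 days, 0 of 47 members passed the test in either direction, where 0.254% of all genes rose and 0.188% fell. The unadjusted p was under 0.05 for 20 members with higher values and 1 with lower values, and DESeq2 called 0. Of all 16504 genes tested, 921 were higher and 751 lower at that unadjusted p. The median log2 change was 0.19, and 39 members lay above 0 and 8 below. Counts over all genes are not given for the alternatives here, so their member counts describe stability only. The count depended on single libraries, since 29 members were called without the vehicle library, 9 without either 30-day library and 6 without the library with 3 days of doxycycline alone. HIST1H2BJ changed by 0.13 (adjusted p = 0.721) and HIST1H2BK by 0.14 (adjusted p = 0.511).

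After 30 days of doxycycline 11 of 47 members rose and 2 fell in edgeR's quasi-likelihood F test, where 2.51% of all genes rose and 1.55% fell. HIST1H4A read 60.3 CPM after 30 days with DHT and 114 CPM without DHT, against 32.7 and 92.8 CPM in the matching libraries without doxycycline (log2 change 0.54, SE 0.10, adjusted p = 0.00181). HIST1H4C read 210.2 and 462 CPM after 30 days, against 127 and 374 CPM (0.50, SE 0.08, adjusted p = 0.000468). In both H4 genes each 30-day library lay above its match. HIST1H1E (0.40), HIST2H2BF (0.38), HIST1H2AL (0.38) and HIST2H2AB (0.36) completed the 6 largest rises among called members. HIST2H2BE fell, with 234 and 174 CPM after 30 days against 331 and 201 CPM (log2 change -0.36, SE 0.07, adjusted p = 0.00377). HIST4H4 read 77.9 and 75.8 CPM against 86.7 and 100.2 CPM (-0.28, SE 0.07, adjusted p = 0.0293). In both genes each 30-day library lay below its match. HIST1H2BJ (-0.07, adjusted p = 0.801) and HIST1H2BK (-0.03, adjusted p = 0.871) were not called, but HIST1H2BJ was called higher without the vehicle library (0.25, adjusted p = 0.0222) and lower without the library with DHT alone (-0.35, adjusted p = 0.000426).

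The 30-day count of 13 called members also rested on single libraries and on the tool. It was 29 without the vehicle library (28 higher), 8 without the library with DHT alone (2 higher and 6 lower), 2 without the library with 30 days of doxycycline and DHT (both higher), and 1 with DESeq2 (lower). The matching counts over all genes are not given, so these counts describe stability only. Each of the 13 members lost the call under 1 or more of the 9 alternatives, with HIST1H4A, HIST1H4C and HIST2H2BE called in 8 of them. Pair by pair, the doxycycline difference lay mostly in the libraries with DHT: with DHT the member median was 0.40 at 3 days (37 of 42 higher) and 0.47 at 30 days (36 of 42 higher), and without DHT it was 0.03 (25 of 43 higher) and -0.03 (17 of 43 higher). The S phase genes had medians of 0.55 and 0.50 with DHT and 0.19 and 0.25 without. With 1 library a group, whether the doxycycline change depends on DHT was not tested. In the fit over both DHT levels, 9 of 17 S phase genes rose at 3 days and 12 of 17 at 30 days, led by CDT1 (0.47 and 0.56), the helicase subunits MCM2 (0.44 and 0.48) and MCM3 (0.43 and 0.48). CDK2, the kinase that acts with cyclin E on NPAT, rose at both times (0.33 and 0.44). NPAT (0.33, adjusted p = 0.0132) and SLBP (0.24, adjusted p = 0.0469) rose at 30 days and were not called at 3 days (0.19, adjusted p = 0.360, and 0.21, adjusted p = 0.233). Whether the 2 times differ was not tested for these genes.

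In the poly(A) libraries of C4-2, 3 days of doxycycline raised a small set of members, among which the H2B genes HIST1H2BK and HIST1H2BJ had the smallest adjusted p in both comparisons. Without the inhibitor 8 of 41 tested members rose and 0 fell in edgeR's quasi-likelihood F test, where 4.25% of all 18423 genes rose and 3.59% fell. The unadjusted p was under 0.05 for 18 members, all higher, and DESeq2 called 3, all higher. Of all genes tested, 2068 were higher and 2009 lower at that unadjusted p. The median log2 change was 0.26. With the inhibitor in both arms 8 of 41 rose and 0 fell, where 4.52% of all genes rose and 3.2% fell, and the median was 0.35. The unadjusted p was under 0.05 for 18 members, all higher, and DESeq2 called 4, all higher. Of all genes tested, 2289 were higher and 1854 lower at that unadjusted p. The counts over all genes called by DESeq2 are not given for either comparison. These comparisons share no library, and 5 members were called in both, which is 62.5% of each list: HIST1H2BJ, HIST1H2BK, HIST1H3B, HIST1H2BO and HIST1H2AG. Both comparisons share a line, a kit and a fit, and how many of all genes were called in both was not counted. The members held 0.104% and 0.103% of reads with doxycycline, against 0.0783% and 0.0835% with DMSO, and 0.108% and 0.107% with doxycycline and inhibitor, against 0.0926% and 0.0912% with inhibitor alone.

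HIST1H2BJ read 22.99 and 20.97 CPM with doxycycline, against 8.13 and 9.90 CPM with DMSO (log2 change 1.28, SE 0.13, adjusted p = 1.56e-05). With the inhibitor in both arms it read 19.6 and 18.5 CPM with doxycycline, against 9.14 and 7.68 CPM (1.17, SE 0.13, adjusted p = 4.27e-05). All 4 doxycycline libraries lay above all 4 others, and the gene was called in all 13 alternatives without the inhibitor and all 14 with it. HIST1H2BK read 201 and 205 CPM with doxycycline against 92.8 and 115 CPM with DMSO (0.97, SE 0.08, adjusted p = 3.46e-06). With the inhibitor it read 191 and 191 CPM against 128 and 126 CPM (0.59, SE 0.08, adjusted p = 0.000267). Again no doxycycline library overlapped the others. Only 25.9% of the 50-base words of HIST1H2BK are unique, so reads may be shared with close copies such as HIST1H2BN, whereas 95.4% are unique in HIST1H2BJ.

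The other members called in both comparisons were HIST1H3B, HIST1H2BO and HIST1H2AG. HIST1H3B read 3.32 and 2.41 CPM with doxycycline against 1.10 and 1.52 CPM with DMSO (1.11, SE 0.27, adjusted p = 0.0189), and with the inhibitor 3.53 and 3.06 CPM against 1.38 and 1.37 CPM (1.26, SE 0.26, adjusted p = 0.00622). HIST1H2BO read 1.81 and 2.41 CPM against 0.964 and 1.079 CPM (1.04, SE 0.31, adjusted p = 0.0466), and with the inhibitor 2.61 and 2.00 CPM against 0.873 and 1.19 CPM (1.20, SE 0.30, adjusted p = 0.0196). HIST1H2AG read 21.9 and 19.1 CPM against 14.7 and 16.3 CPM (0.40, SE 0.12, adjusted p = 0.0450), and with the inhibitor 20.9 and 24.0 CPM against 16.7 and 15.5 CPM (0.47, SE 0.11, adjusted p = 0.0174). In each of these genes the doxycycline libraries lay above their controls. The poly(A) DMSO level was 0.0023 of the total-RNA vehicle level for HIST1H3B, 0.0078 for HIST1H2BO and 0.045 for HIST1H2AG. These rises are therefore seen in a small part of the RNA of these genes. With the total-RNA kit, at 1 library per group, 0 of 47 members were called after 3 days of doxycycline.

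Called without the inhibitor were HIST2H2BE, with 189 and 192 CPM against 146 and 159 CPM (0.32, SE 0.07, adjusted p = 0.00724), and HIST1H2AM, with 4.10 and 3.79 CPM against 2.14 and 2.60 CPM (0.73, SE 0.21, adjusted p = 0.0404). HIST1H3H was the eighth (0.36, adjusted p = 0.0353). Called with the inhibitor were HIST4H4, with 7.46 and 8.23 CPM against 5.37 and 4.31 CPM (0.68, SE 0.16, adjusted p = 0.0163), HIST1H4H, with 35.7 and 37.3 CPM against 27.97 and 24.7 CPM (0.47, SE 0.10, adjusted p = 0.00724), and HIST2H2BD, with 2.10 and 1.93 CPM against 1.06 and 0.937 CPM (1.00, SE 0.28, adjusted p = 0.0352). The doxycycline libraries lay above their controls in each. HIST1H1C, the member with the most reads, read 308 and 302 CPM against 276 and 285 CPM without the inhibitor and was not called.

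**Figure D5:**
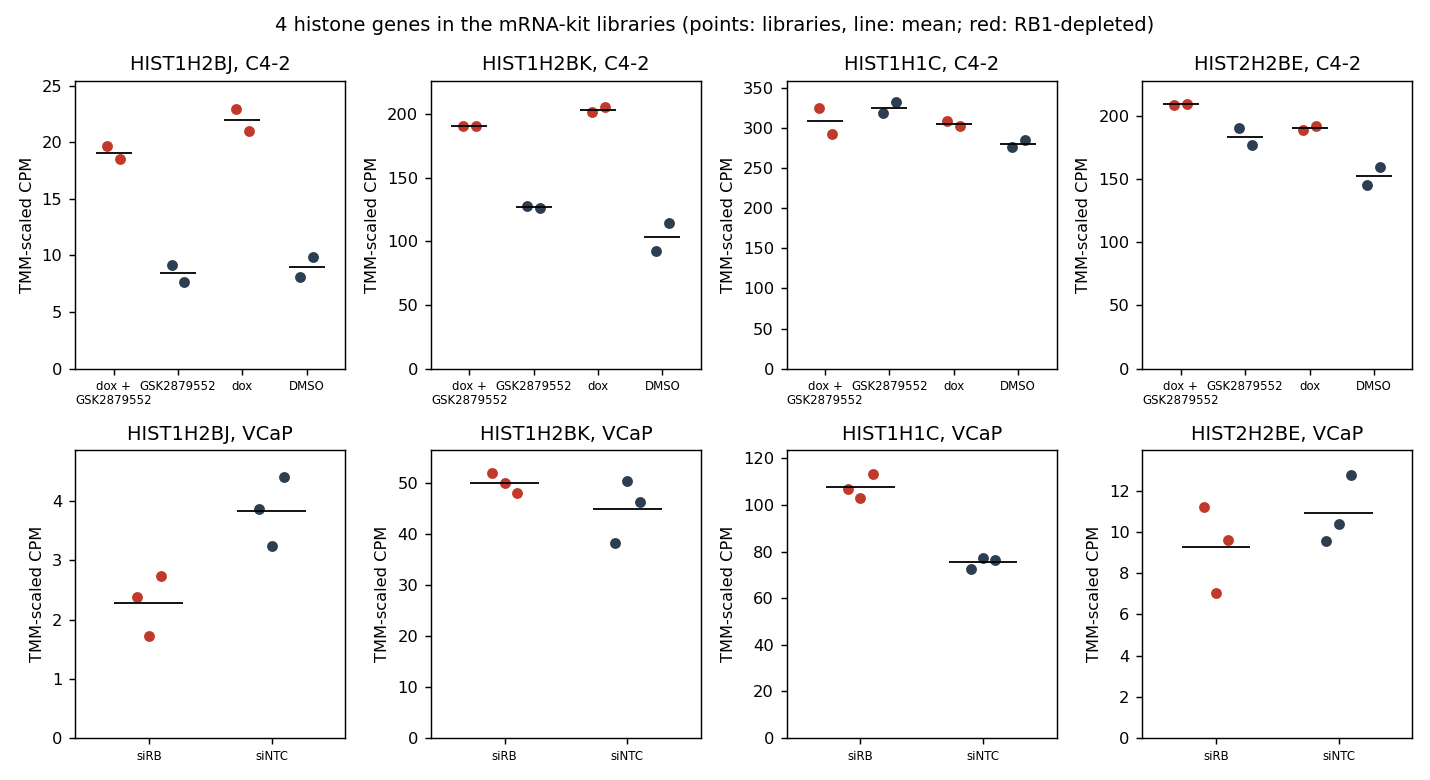
CPM of HIST1H2BJ, HIST1H2BK, HIST1H1C and HIST2H2BE in each poly(A)-kit library of C4-2 (4 groups of 2) and VCaP (2 groups of 3); points are libraries (red where RB1 was lowered) and lines group means, and each axis starts at 0. HIST1H2BJ lies at 18.5 to 22.99 in the C4-2 doxycycline libraries, above 7.68 to 9.90 in the others, and at 1.72 to 2.73 with RB1 siRNA in VCaP, below 3.24 to 4.40 with the non-targeting siRNA.

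The counts of called members in these comparisons depended on the libraries in the fit. How many of all genes were called in the same fits is not given, so the counts describe stability only. Without the inhibitor, 2 members were called without DMSO replicate 1 or doxycycline replicate 1, 3 without DMSO replicate 2 or doxycycline replicate 2, 4 without either library that had both agents, and 14 without inhibitor-only replicate 1. With the inhibitor, 4 were called without the first library that had both agents and 3 without the second. HIST1H2BJ and HIST1H2BK were called under every alternative in both comparisons. Without the inhibitor the other 6 members lost the call under some of the 13 alternatives, with HIST2H2BE called in 10, HIST1H3B in 9 and the remaining 4 in 5 each. With the inhibitor the other 6 lost it under some of 14, from HIST1H4H called in 13 to HIST2H2BD called in 3. Beside these changes, transcripts of the mitochondrial genome differed in the comparison without the inhibitor, where 13 of 15 rose with a median of 0.53, and 0 were called with the inhibitor in both arms. RNAs without a poly(A) tail were lower, with 2 of 6 called lower in each comparison and medians of -0.39 and -0.58. The part of either in the histone changes was not tested.

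S phase genes rose in the same poly(A) libraries. Without the inhibitor 11 of 17 rose and none fell (median 0.37), among them CDC6, a loader of the helicase (0.53), MCM4 (0.50) and MCM3 (0.47). With the inhibitor 12 of 17 rose (median 0.37), among them CDT1 (0.74), MCM6 (0.53) and MCM4 (0.47). Of 25 histone mRNA factors 2 rose and 1 fell in each: CDK2 (0.63 and 0.57) rose in both, CCNE2 (0.71) without the inhibitor and CCNA2 (0.48) with it, and CPSF2, a part of the cleavage complex, fell in both (-0.30 and -0.35). SLBP (0.13 and 0.17) and NPAT (0.13 and 0.00) were not called. Among replacement histones H2AFX (0.49) and H1FX (0.36) rose without the inhibitor, and H1F0 was lower in both comparisons (-0.58 and -0.47).

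Genes that share an upstream window did not always move alike, which was examined after the values were seen and not tested. With doxycycline and no inhibitor HIST1H2BJ changed by 1.28 and its partner HIST1H2AG by 0.40, and HIST1H2BO by 1.04 and HIST1H2AM by 0.73, all called. HIST2H2BE changed by 0.32 and its partner HIST2H2AC by 0.02, the second not called. HIST2H2AC read only 1.56 and 1.34 CPM with doxycycline and 1.58 and 1.27 CPM with DMSO. Its poly(A) DMSO level was 0.0085 of its total-RNA vehicle level, against 0.716 for HIST2H2BE, so the kit did not capture these partners alike. With DHT HIST2H2BE rose by 0.55 and HIST2H2AC fell by 0.48 on the log2 scale, reading 102, 106 and 119 CPM with DHT against 159, 153 and 144 CPM without. In the same comparison HIST1H2BJ changed by -0.19, which was not called, and HIST1H2AG by -0.76, while HIST3H2BB changed by -1.06 and HIST3H2A by -0.38, both called.

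In VCaP, RB1 siRNA raised 1 of 16 tested members and lowered 0, where 2.96% of all 14066 genes rose and 2.65% fell. That member was HIST1H1C, with 107, 103 and 113 CPM with RB1 siRNA against 72.4, 77.3 and 76.6 CPM with the non-targeting siRNA (log2 change 0.51, SE 0.06, adjusted p = 1.05e-10). The groups did not overlap, and the gene was called under all 10 alternatives. HIST1H2BJ rose with doxycycline in the C4-2 poly(A) libraries. In VCaP it read 2.38, 1.72 and 2.73 CPM with RB1 siRNA against 3.87, 3.24 and 4.40 CPM with the non-targeting siRNA. All 3 siRNA libraries against RB1 lay below the others, but the change of -0.75 (SE 0.30) was not called (adjusted p = 0.136). HIST1H2BK read 52.0, 49.9 and 47.9 CPM against 38.3, 50.4 and 46.2 CPM (0.15, SE 0.08, adjusted p = 0.323), with overlapping groups.

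The members held 0.0276%, 0.0269% and 0.0288% of reads with RB1 siRNA, against 0.0222%, 0.0246% and 0.0241% with the non-targeting siRNA, groups that did not overlap and in which HIST1H1C took the most member reads. The median log2 change of the 16 members was 0.06. HIST1H2AC read 50.6, 54.0 and 57.4 CPM with RB1 siRNA against 46.9, 53.2 and 46.2 CPM, and HIST2H2BE read 11.2, 7.02 and 9.62 CPM against 9.56, 10.4 and 12.8 CPM. The groups of both genes overlapped. S phase genes rose, with 11 of 17 called higher and none lower (median 0.26), among them TK1 (0.39), MCM2 (0.34) and MCM4 (0.26). Of the histone mRNA factors 2 rose, CDK2 (0.26) and the helicase gene UPF1 (0.14), and ZNF473, a part of the processing machinery, fell (-0.35), with SLBP (0.15) and NPAT (0.07) not called. Transcripts of the mitochondrial genome differed too, with 13 of 15 lower and 1 higher (median -0.24), and their part in these values was not tested.

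GSK2879552 changed no member past the threshold in C4-2. Without doxycycline 0 of 41 members rose and 0 fell, where 0.619% of all genes rose and 0.0597% fell. The quasi-likelihood F test of edgeR put 8 members at an unadjusted p under 0.05 and DESeq2 called 0. Of all 18423 genes, 1233 were higher and 983 lower at that unadjusted p. With doxycycline 0 rose and 0 fell, where 1.24% of all genes rose and 0.0923% fell. By the same test 4 members were at an unadjusted p under 0.05, and DESeq2 called 0. Of all genes, 1249 were higher and 725 lower at that unadjusted p. The medians of the members were 0.13 and 0.15. Counts over all genes are not given for the alternative fits below, so their member counts describe stability only. HIST2H2BE read 190.0 and 177 CPM with the inhibitor against 146 and 159 CPM with DMSO (0.27, adjusted p = 0.0885), with the inhibitor libraries above the DMSO libraries. HIST1H2BJ read 9.14 and 7.68 CPM with the inhibitor against 8.13 and 9.90 CPM (-0.09, adjusted p = 0.847), and HIST1H2BK 128 and 126 CPM against 92.8 and 115 CPM (0.29, adjusted p = 0.131). Without inhibitor-only replicate 2, 5 members were called in the comparison without doxycycline, 2 without replicate 1 and 1 without DMSO replicate 2. With doxycycline, 1 member was called without either inhibitor-only library. In cells with doxycycline HIST1H2BJ changed by -0.20 (adjusted p = 0.572) and HIST1H2BK by -0.09 (adjusted p = 0.753).

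Whether the inhibitor's effect depended on doxycycline was tested as an interaction, and 0 of 41 members passed in either direction, where 0% of all genes were higher and 0.0163% lower. The quasi-likelihood F test put 5 at an unadjusted p under 0.05 and DESeq2 called 0, while 1 was called lower without either inhibitor-only library. Of all genes, 465 were higher and 415 lower at that unadjusted p in the main fit. The counts over all genes in the other fits are not given. The difference was -0.38 for HIST1H2BK (adjusted p = 0.885), -0.11 for HIST1H2BJ (adjusted p = 0.993) and 0.62 for HIST4H4 (adjusted p = 0.984). None of the S phase genes was called in either inhibitor comparison (medians -0.16 and -0.12), nor any of the histone mRNA factors, with SLBP at -0.03 and 0.01 and NPAT at 0.01 and -0.12. The mitochondrial transcripts differed between inhibitor and DMSO without doxycycline, with 13 of 15 higher (median 0.50), and DMSO replicate 1 was the lowest library for them.

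In LNCaP, with the total-RNA kit, most members were lower with GSK2879552. These are 2 libraries, so the ratios compare those libraries and have no replicate check. The members held 0.151% of reads with the inhibitor (0.149 to 0.153) against 0.205% with vehicle (0.203 to 0.208). Of 41 members with 100 or more reads in the pair, 34 were lower and 7 higher; 4 were past 2-fold lower and 0 past 2-fold higher, where 1.32% of all genes were lower and 1.46% higher by that measure. The median log2 ratio was -0.60 over the members and 0.00 over all genes, with class medians of -0.71 for H1, -0.40 for H2A, -0.53 for H2B, -0.81 for H3 and -0.35 for H4.

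The 4 past 2-fold were HIST1H1B, HIST1H3I, HIST1H2AL and HIST1H3B. HIST1H1B read 37.2 CPM with the inhibitor against 107 CPM with vehicle (log2 ratio -1.53, 95% exact interval -1.68 to -1.38). HIST1H3I read 3.72 CPM against 9.40 CPM (-1.30, -1.84 to -0.85), HIST1H2AL 6.30 CPM against 13.7 CPM (-1.10, -1.51 to -0.74) and HIST1H3B 33.9 CPM against 72.0 CPM (-1.08, -1.25 to -0.92). The most read members, HIST1H1C with 189 CPM against 304 CPM and HIST1H1E with 167 CPM against 273 CPM, were lower too. HIST1H2BJ read 9.87 CPM against 17.4 CPM (-0.81, -1.13 to -0.50) and HIST1H2BK 32.3 CPM against 45.1 CPM (-0.48, -0.66 to -0.30).

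The largest ratios above 0 belonged to HIST3H2A, with 26.2 CPM with the inhibitor against 17.1 CPM with vehicle (0.61, 0.37 to 0.85), HIST3H2BB, with 6.07 against 4.95 CPM (0.29, -0.19 to 0.78), HIST2H2AC, with 95.8 against 85.4 CPM (0.17, 0.05 to 0.28), and HIST2H2BE, with 105 against 101 CPM (0.06, -0.05 to 0.17). The interval covers 0 for HIST3H2BB and HIST2H2BE. All 17 S phase genes were lower with the inhibitor, 9 of them past 2-fold, with a median of -1.05. The histone mRNA factors had a median of 0.06, with SLBP at 0.09 and NPAT at -0.01. RNAs without a poly(A) tail were higher in 10 of 11 (median 0.34) and mitochondrial transcripts had a median of -0.72, and the part of either in the histone ratios was not tested.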

How the data were processed

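RNA from 3 prostate cancer cell lines was sequenced in 22 libraries, and the deposited tables hold read counts per gene, which the authors made with STAR 2.7.2 and featureCounts 1.6.4 on hg19 after FastQC 0.11.9, per the submitters' processing notes. Whether featureCounts used the strand is not given in the sources used here, so a member and a gene on the opposite strand may share reads (12 members). The deposited 30 columns include lanes of the same library in the DHT and LNCaP tables. There the chi-square ratios between lanes were 0.983 to 1.01, so lanes were summed and counted as 1 sample. Replicates gave 1.61 to 7.88 in the C4-2 poly(A) table. In VCaP they gave 1.13 to 1.395, under the limit of 1.5 set for lanes, so their spread lay close to counting error.

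Counts were tested with edgeR 4.0.16 (R 4.3.3; TMM scaling, filterByExpr, quasi-likelihood F test, Benjamini-Hochberg adjustment over all genes of the table, called at an adjusted p under 0.05). A group coefficient was used in the poly(A) tables (4 residual degrees of freedom) and an additive model of doxycycline time and DHT in the DHT table (2). The median prior degrees of freedom, which weigh the spread of other genes, were 76.7 in VCaP, 12.9 in the C4-2 poly(A) table and 22.0 in the DHT table. The SE of a change was taken from its F statistic. Single-library pairs were compared as TMM-scaled log2 CPM ratios (prior count 2, at least 100 reads in the pair) with 95% exact Clopper-Pearson intervals. CPM values are TMM-scaled except where kits are set side by side and in levels over a table. The scripts' steps were tested on simulated data. DESeq2 1.42.0 was an alternative; tables were handled with pandas 2.3.3 and scipy 1.17.1. PCR duplicates carry no molecular identifiers.

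Stem-loops, exon overlaps and unique 50-base words came from GENCODE 29 transcripts (39 members matched by identifier, 36 by symbol), and promoters from RefSeq. No gene coordinates on hg19 were used here. The members and gene lists were chosen with earlier results of these data known. Genes were named by a rule: called members, up to 6 per direction by size; the 6 members with most reads in a table; the 4 largest per direction in single-library pairs; HIST1H2BJ, HIST1H2BK, SLBP and NPAT throughout; and up to 3 called genes per direction of each other list. Members mentioned beyond it (HIST1H3H, HIST1H3E, HIST1H4I, HIST1H2BG, HIST2H2BC and the partners of shared upstream windows) were chosen after their values were seen. Some luminal markers are not reported here.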

Additional observations from a re-analysis of the deposited data

Results flagged for a closer look

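In the poly(A) libraries HIST1H2BJ, an H2B gene, lay below its controls in VCaP and above them in C4-2 after RB1 was lowered. With the total-RNA kit in C4-2 it was not called at 3 or 30 days of doxycycline. There it read 111 CPM at 3 days against 119 CPM with vehicle, and with DHT 106 against 79.6 CPM. Its level in the C4-2 poly(A) DMSO libraries was 0.071 of that in the total-RNA vehicle library, in different media. The gene was picked by a search of the 15 members tested in both experiments for groups that did not overlap. How often all genes show such a pattern was not counted. In VCaP all 3 libraries with RB1 siRNA lay below the 3 with non-targeting siRNA, with a log2 change of -0.75 that was not called. Before scaling to library size, these were 17, 11 and 17 reads with RB1 siRNA. The non-targeting libraries held 17, 14 and 20 reads. In C4-2 both libraries with doxycycline lay above their controls, with a log2 change of 1.28 without the inhibitor and 1.17 with it. The difference between the lines was not tested, since the tables come from different media and means of lowering RB1 and were scaled separately.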

How the results depend on the processing

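The number of called members depended on the setting in most comparisons other than DHT and VCaP. The matching shares over all genes are not given for these settings, so these counts describe stability only. For doxycycline without the inhibitor (8) it was 3 with DESeq2, 4 with the replicate block, 15 with the 2 groups alone and 2 to 14 with 1 library left out. For doxycycline with the inhibitor (8) it was 4 with DESeq2, 4 with the 2 groups alone, 3 to 10 with 1 library left out, 7 with the replicate block and 12 with the block after exchanging the numbers of the inhibitor-only libraries, a setting chosen after seeing the data. For the inhibitor without doxycycline (0) it was 3 with no filter on low counts and 0 to 5 with 1 library left out; for the inhibitor with doxycycline (0) it was 1 with the 2 groups alone and 0 to 1 with 1 library left out, and the same 0 to 1 for the interaction.

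For 3 days of doxycycline in the DHT table (0) it was 9 with no filter and 0 to 29 with 1 library left out, and for 30 days (13) it was 1 with DESeq2 and 2 to 29. The cause was not tested. For DHT the count lay at 36 to 41, and for VCaP at 1. HIST1H2BJ at 30 days (-0.07) reversed to 0.25 without the vehicle library and lay between -0.35 and 0.25 with 1 library left out. Members past 2-fold with DHT were 16 at 3 days and 10 at 30 days with scaling by total reads, and 5 at 30 days from 20 reads up. Of 1442 values of named genes under the alternatives, 1263 kept their call or lack of a call, 161 lost the call and 17 gained it. The remaining 1 changed direction with a call under the main setting or the alternative. A change of direction between values that were not called was counted as kept.

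Leaving 15 mitochondrial genes out of the denominator, the members' share was 0.113% with doxycycline and inhibitor, 0.0971% with inhibitor, 0.109% with doxycycline, 0.405% with DHT against 0.847% with vehicle, 0.507% against 0.849% at 3 days of doxycycline, 0.526% against 0.838% at 30 days, and 0.186% with inhibitor against 0.254% with vehicle in LNCaP. Same-numbered libraries did not deviate together (correlations of 0.010 to 0.028 in VCaP and -0.125 to 0.035 in C4-2), so the numbers were not taken as pairs, and the block left the VCaP count at 1 and the inhibitor counts at 0. No paired analysis was possible in the DHT and LNCaP tables because their numbers mark lanes. The total-RNA tables hold 1 library per group, which limits them.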

Other observations

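A run of 7 neighbouring HIST1 genes on chromosome 6 (HIST1H1D, HIST1H4F, HIST1H4G, HIST1H3F, HIST1H2BH, HIST1H3G and HIST1H2BI), picked out after the values were seen, was nearly unread in C4-2 with either kit and in LNCaP with the total-RNA kit. In the C4-2 tables HIST1H1D had 7 reads with the poly(A) kit and 3 with the total-RNA kit, and HIST1H2BH 0 and 3, over all libraries of a table. LNCaP had 9 reads on HIST1H1D and 0 on HIST1H2BH. In VCaP HIST1H2BH had 59 reads and a median of 1.78 CPM, and did not differ past the threshold between RB1 siRNA and the non-targeting siRNA (log2 change -0.13, adjusted p = 0.903).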
